A study of Arabidopsis thaliana with 64 samples.

Results

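Indolic glucosinolates are sulphur-rich compounds that plants of the cabbage family make from tryptophan, and the 10 genes described here control and carry out their synthesis in Arabidopsis thaliana. They were taken by name and not by a rule on their measured values, but earlier results of these data were known. They are 3 transcription factor genes (MYB34, MYB51 and MYB122) and 7 enzyme genes (CYP79B2, CYP79B3, CYP83B1, SUR1, UGT74B1, SOT16 and CYP81F2). They are 10 of the 33321 gene rows in the deposited count tables, and all 10 passed the filter on low counts in every comparison.

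In this pathway the CYP79B enzymes turn tryptophan into indole-3-acetaldoxime, an intermediate shared with auxin and camalexin synthesis. CYP83B1, SUR1, UGT74B1 and SOT16 then build the glucosinolate core, and CYP81F2 hydroxylates the indole ring of the finished compound. MYB34, MYB51 and MYB122 are related R2R3-type MYB proteins that activate these genes in leaves and roots, where the compounds are known as a defence against insects and microbes.

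RNA was sequenced from F4 lines bred from crosses of Landsberg erecta (Ler) and C24, from the F1 hybrids of both crosses and from the parents themselves, at 15 and 28 days after sowing (DAS). The 8 L lines are hybrid mimics, lines meant to keep the large size of the F1, and the 2 S lines (S1-1 and S2-1) are small plants of the same descent. Each of the 32 groups had 2 pools of 5 plants, so the p-values measure the spread between pools, which need not be that between single plants. At 15 DAS (18 groups, 36 libraries) the aerial part of plate-grown seedlings was taken, and at 28 DAS (14 groups, 28 libraries) the 4 largest leaves of plants that had been moved to soil at 18 DAS. All plants had 16 h of light a day and no treatment. Batch 2 held lines L3-1, L3-2, L4-1 and L4-2, the hybrid LerxC24, and Ler and C24 pools lettered C and D. Batch 1 held lines L1-1, L1-2, L2-1 and L2-2, the hybrid C24xLer, and Ler and C24 pools lettered A and B. The batches also had different light tubes, so batch, light and direction of the cross cannot be told apart. Pools of the 5 smallest of 50 seedlings were made from Ler and from C24 at 15 DAS in batch 1. The S lines were sampled at 15 DAS only. One S line belonged to batch 1, but the labels do not tell S1-1 and S2-1 apart here, and neither was given a batch.

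Libraries held 36324848 to 256721442 counted reads. At 28 DAS 5 of the 6 root markers (CASP1, RHD6, COBL9, EXPA7 and WOX5) were below 1 CPM (the read count scaled to a common library size) in every library, and the 6 together summed to 4.39 to 6.93 CPM. At 15 DAS the same sum ran between 34.9 and 257.2 CPM, with the highest value in pool A of the smallest C24 seedlings. The 4 green leaf markers summed to 26890 to 67180 CPM at 28 DAS and to 11140 to 19450 CPM at 15 DAS. Over 147 transcripts that separate the parents, the 15 DAS Ler pools A and B of batch 1 stood 15.1 and 9.38% of the way towards C24, while all other Ler pools stood at 0.0%. The 15 DAS C24 pools A and B of batch 1 stood at 87.5 and 90.1%, and those of the smallest C24 seedlings at 85.4 and 87.5%. The C24 pools C and D of batch 2 stood at 99.8 and 100.0% at that age. The smallest C24 pool B and the C24 pool B of batch 1 differed by a chi-square of only 2.46 per degree of freedom, against 24.8 to 445 for the 32 pairs of pools within a group. The 15 DAS pools B of the separate lines L1-1 and L1-2 differed by 18.4, also below that range. One 28 DAS library, L4-2 pool B, carries a tissue label of 15-day plants, but its profile was closest to 28 DAS libraries and its title was followed. In pooled tissue, fewer cells of a type and less RNA per cell cannot be told apart.

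In the TAIR10.1 annotation of RefSeq none of the 10 genes overlaps another gene. MYB51 (AT1G18570) lies at chr1:6389399-6391386 on the plus strand, MYB122 (AT1G74080) at chr1:27855578-27857598 on the plus strand and MYB34 (AT5G60890) at chr5:24494291-24496371 on the plus strand. CYP79B2 (AT4G39950) lies at chr4:18525042-18527602 (plus), CYP79B3 (AT2G22330) at chr2:9488413-9491404 (plus) and CYP83B1 (AT4G31500) at chr4:15273410-15275404 (minus). SUR1 (AT2G20610) lies at chr2:8877887-8880440 (minus) and UGT74B1 (AT1G24100) at chr1:8525334-8527087 (minus). SOT16 (AT1G74100) lies at chr1:27864345-27865694 (minus), and CYP81F2 (AT5G57220) at chr5:23187840-23189902 (plus). The coding sequences of CYP79B2 and CYP79B3 are 80.5% identical with a longest identical run of 32 bases, and those of MYB51 and MYB122 are 73.1% identical.

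The parents differed at 28 DAS in opposite directions for different members, and 4 promoters are shown for that reason: MYB51 and CYP81F2, which were lower in Ler leaves, and MYB34 and UGT74B1, which were higher. Each window runs from 250 bases before to 50 bases after the annotated start (RefSeq, build TAIR10.1), written along the gene's own strand from 5′ to 3′. The windows are chr1:6389149-6389448 (plus) for MYB51, chr5:23187590-23187889 (plus) for CYP81F2, chr5:24494041-24494340 (plus) for MYB34 and chr1:8527038-8527337 (minus) for UGT74B1. Capitals mark the W-box core TTGAC and its reverse complement GTCAA, the core of the motif that WRKY factors bind.
MYB51: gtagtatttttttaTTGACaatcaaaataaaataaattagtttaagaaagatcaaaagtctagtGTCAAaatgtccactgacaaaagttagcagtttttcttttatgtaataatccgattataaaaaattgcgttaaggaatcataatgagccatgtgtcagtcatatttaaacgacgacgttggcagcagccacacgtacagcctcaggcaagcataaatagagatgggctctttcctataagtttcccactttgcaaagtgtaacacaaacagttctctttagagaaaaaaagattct
CYP81F2: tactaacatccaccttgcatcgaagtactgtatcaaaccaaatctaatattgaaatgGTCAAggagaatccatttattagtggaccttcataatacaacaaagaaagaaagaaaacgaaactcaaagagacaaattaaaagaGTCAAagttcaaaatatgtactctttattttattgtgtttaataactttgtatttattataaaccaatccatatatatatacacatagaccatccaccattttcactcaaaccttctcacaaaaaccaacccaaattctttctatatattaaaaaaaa
MYB34: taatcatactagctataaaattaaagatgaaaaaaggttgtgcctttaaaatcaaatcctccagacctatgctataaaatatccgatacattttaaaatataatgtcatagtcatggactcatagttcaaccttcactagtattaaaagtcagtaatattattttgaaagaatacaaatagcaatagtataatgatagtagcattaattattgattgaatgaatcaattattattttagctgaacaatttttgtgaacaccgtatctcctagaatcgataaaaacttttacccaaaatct
UGT74B1: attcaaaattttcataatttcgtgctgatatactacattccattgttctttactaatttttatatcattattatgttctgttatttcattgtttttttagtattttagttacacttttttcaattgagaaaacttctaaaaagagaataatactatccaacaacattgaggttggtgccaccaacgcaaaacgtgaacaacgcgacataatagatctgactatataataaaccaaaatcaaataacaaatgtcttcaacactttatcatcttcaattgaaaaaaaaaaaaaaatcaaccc
MYB51 held the W-box core at positions -236 and -186 from the start, and CYP81F2 at -193 and -108. MYB34 and UGT74B1 held none in this window. Of 27443 promoter windows of the same length 50.5% held at least 1 such core, so the matches are a description of these letters and no sign of a bound site. Of the other members, SUR1, which was also higher in Ler leaves, held cores at -244 and -148, unlike MYB34 and UGT74B1. It also held a G-box (CACGTG, its own reverse complement) at -50. CYP83B1 held a core at 14, and MYB122 a core at 22 that overlaps a G-box at 17. CYP79B2, CYP79B3 and SOT16 held neither motif. The G-box stood in 7.7% of all windows. The GCC-box (GCCGCC or GGCGGC) stood in 2.6% of them and in no member's window.

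Per kilobase of exon the core enzymes SUR1, CYP83B1, UGT74B1 and SOT16 had the highest median levels of the members, and MYB122 and the indole-modifying enzyme CYP81F2 the lowest. At 28 DAS the median over the 28 libraries was 175.6 CPM per kb for SUR1, the C-S lyase, 158 for CYP83B1, the aldoxime-oxidising cytochrome P450, and 96.3 for UGT74B1, the S-glucosyltransferase. SOT16, the sulfotransferase of the last core step, followed with 54.1 CPM per kb, CYP79B3 with 30.8 and CYP79B2 with 18.3. MYB51 stood at 9.03 CPM per kb, MYB34 at 6.96, CYP81F2 at 1.60 and MYB122 at 1.32. At 15 DAS the order of these medians was the same, with 62.3 CPM per kb for SUR1, 3.60 for CYP81F2 and 1.62 for MYB122. Neighbours in this order often overlapped from library to library, since CYP79B3 alone ran between 38.7 and 141.7 CPM at 28 DAS.

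Across libraries of 1 age, CYP81F2 and the regulators MYB51 and MYB34 varied most. At 28 DAS CYP81F2 had a lowest level of 0.859, a median of 2.83 and a highest level of 24.1 CPM, a 28.0-fold range. MYB34 ran between 1.65 and 25.7 CPM around a median of 12.4 CPM, and MYB51 between 6.14 and 44.9 CPM around 16.1 CPM. MYB122 stayed between 1.58 and 2.94 CPM, a 1.85-fold range. At 15 DAS the widest ranges were again those of CYP81F2 (3.44 to 45.0 CPM), MYB51 (6.29 to 63.8 CPM) and MYB34 (3.01 to 19.4 CPM), and MYB122 had the narrowest (1.90 to 3.37 CPM). A single 28 DAS library, pool B of line L2-2, held the lowest level of MYB34, CYP79B2, CYP79B3, SUR1, UGT74B1 and SOT16 and the highest of MYB51. Pool C of Ler in batch 2 held the highest 28 DAS level of CYP79B2, CYP79B3, SUR1 and UGT74B1.

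**Figure D1:**
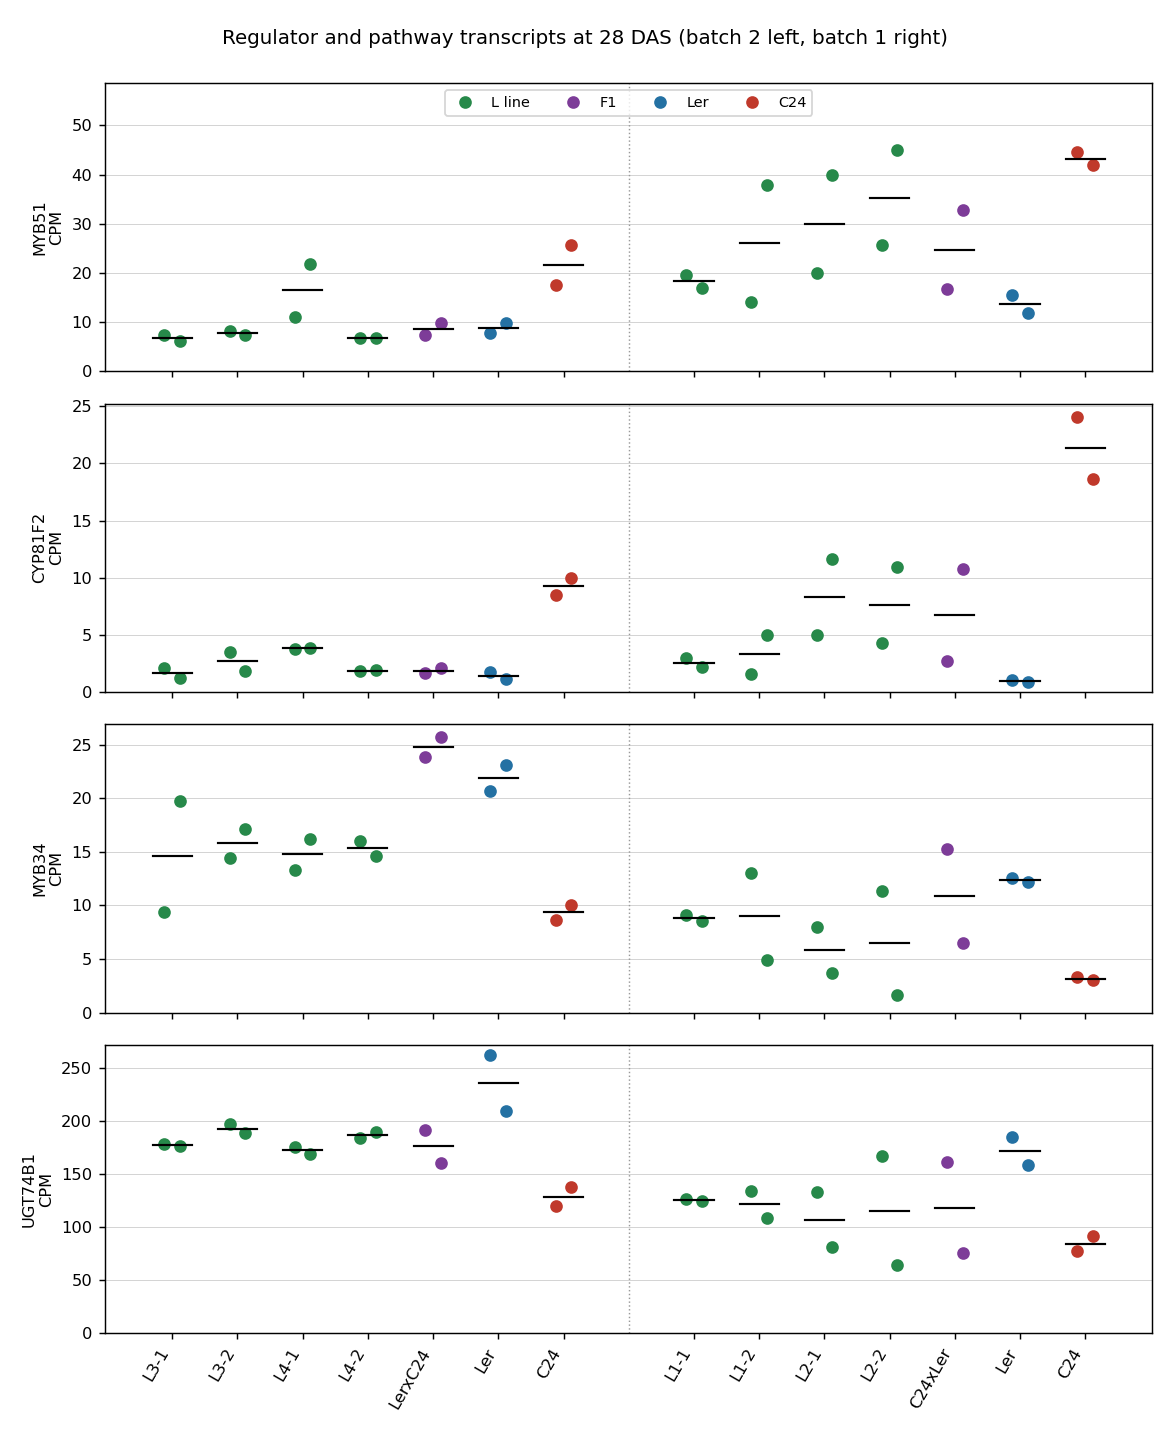
Levels in CPM (vertical axes, linear) of MYB51, CYP81F2, MYB34 and UGT74B1 in the 14 groups at 28 DAS, batch 2 left and batch 1 right. Dots are the 2 pools of a group and black lines their mean; C24 stands highest for CYP81F2 in both batches (8.48 and 10.01 CPM in batch 2, 24.1 and 18.6 CPM in batch 1).

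The comparison of the inbred parents asks what the hybrids inherit. In leaves at 28 DAS the 2 parents differed in 5 of the 10 members: MYB34, SUR1 and UGT74B1 were higher in Ler than in C24, and MYB51 and CYP81F2 lower. These counts come from both batches at equal weight, a comparison chosen after the data were seen, and are called at a Benjamini-Hochberg (BH) adjusted p below 0.05 in edgeR's quasi-likelihood test. Of all genes tested 24.1% were called there, 11.9% higher and 12.2% lower. The median log2 difference of the 10 members was 0.34, beside 0.02 over all genes. None of the 5 calls was lost in any of the 13 alternatives run on this comparison.

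In leaves CYP81F2 had 1.71 and 1.15 CPM in Ler of batch 2, against 8.48 and 10.01 CPM in C24 of that batch. In batch 1 it had 1.05 and 0.859 CPM in Ler, against 24.1 and 18.6 CPM in C24. All 4 Ler pools thus lay below all 4 C24 pools. The log2 difference was -2.67 ± 0.63 (SE; edgeR BH adjusted p = 0.00812) in batch 2, -4.49 ± 0.67 (edgeR BH adjusted p = 1.58e-04) in batch 1 and -3.58 ± 0.46 (edgeR BH adjusted p = 1.38e-05) over both. The batch 2 call was lost without Ler pool D (-2.42, edgeR BH adjusted p = 0.088). The TAIR10 reference is that of another accession, Columbia, and sequence differences that keep reads of 1 parent from mapping were not tested as a part of this difference. In seedlings the same Ler gene gave 3.44 to 7.31 CPM in the 4 pools, against 3.78 to 9.94 CPM in C24.

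MYB51 moved the same way as CYP81F2. It had 7.89 and 9.78 CPM in Ler of batch 2, against 17.6 and 25.7 CPM in C24, and 15.5 and 11.8 CPM in Ler of batch 1, against 44.5 and 41.8 CPM in C24. Every Ler pool lay below every C24 pool. The log2 difference was -1.28 ± 0.44 (edgeR BH adjusted p = 0.0659) in batch 2, which missed the threshold, -1.66 ± 0.44 (edgeR BH adjusted p = 0.0162) in batch 1 and -1.47 ± 0.31 (edgeR BH adjusted p = 0.0018) over both. In batch 1 the call was lost without C24 pool A, Ler pool A or Ler pool B (edgeR BH adjusted p = 0.0797, 0.0542 and 0.153), and with libraries of the batch only (0.0518). In batch 2 MYB51 was called with the replicate block, which fits the pool letter (edgeR BH adjusted p = 0.028).

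MYB34 stood on the other side. It had 20.7 and 23.2 CPM in Ler of batch 2, against 8.66 and 10.1 CPM in C24, and 12.6 and 12.2 CPM in Ler of batch 1, against 3.28 and 3.04 CPM in C24. Every Ler pool lay above every C24 pool. The log2 difference was 1.24 ± 0.62 (edgeR BH adjusted p = 0.225) in batch 2, 1.97 ± 0.63 (edgeR BH adjusted p = 0.0474) in batch 1 and 1.61 ± 0.44 (edgeR BH adjusted p = 0.012) over both. The batch 1 call was lost with any of its 4 libraries left out (edgeR BH adjusted p = 0.121 to 0.205) and with libraries of the batch only (0.127), whereas MYB34 in batch 2 was called with libraries of the batch only (0.0201). The remaining regulator, MYB122, had 1.97 to 2.51 CPM in the 4 Ler pools and 1.94 to 2.22 CPM in the 4 C24 pools, which overlapped.

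The 2 core enzymes that differed, SUR1 and UGT74B1, were higher in Ler together with MYB34. SUR1 had 644 and 461 CPM in Ler of batch 2, against 332 and 300.3 CPM in C24, and 361 and 373 CPM in Ler of batch 1, against 173 and 225 CPM in C24. UGT74B1 had 262 and 209 CPM in Ler of batch 2, against 119.9 and 137.8 CPM in C24, and 185.5 and 158.6 CPM in Ler of batch 1, against 77.1 and 91.9 CPM in C24. For both genes the lowest Ler pool lay above the highest C24 pool. Over both batches the log2 difference was 0.85 ± 0.21 for SUR1 (edgeR BH adjusted p = 0.00599) and 0.96 ± 0.25 for UGT74B1 (edgeR BH adjusted p = 0.00884). Within a batch neither passed: SUR1 gave 0.82 ± 0.30 in batch 2 and 0.89 ± 0.30 in batch 1 (edgeR BH adjusted p = 0.0821 and 0.059), and UGT74B1 0.89 ± 0.35 and 1.03 ± 0.36 (edgeR BH adjusted p = 0.119 and 0.0655). With the replicate block both passed in each batch (edgeR BH adjusted p = 0.0386 in batch 2 and 0.0257 in batch 1 for SUR1, and 0.0383 and 0.0218 for UGT74B1).

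The remaining enzymes gave no call between the parents at 28 DAS. CYP79B3 averaged 97.8 ± 29.6 CPM in Ler and 66.2 ± 12.8 CPM in C24 (SD, n = 4 pools each), a log2 difference of 0.57 ± 0.24 (edgeR BH adjusted p = 0.094; 0.0477 with the replicate block). In batch 2 alone CYP79B3 was called with the replicate block (edgeR BH adjusted p = 0.031). CYP79B2, CYP83B1 and SOT16 overlapped between the parents, with log2 differences of 0.40, 0.28 and -0.12. Within the batches, 1 member was called in batch 2, lower in Ler, where 13.1% of all genes were called and 6.96% lower. In batch 1 there were 3, 1 higher and 2 lower, where 13.5% of all genes were called, 6.82% higher and 6.72% lower. With the replicate block 5 members were called in each batch. The tests of whether the parental difference itself changed with the batch called none of the members (0.0144% of all genes; 1 member at an unadjusted p below 0.05, and none with DESeq2). The largest such term was that of CYP81F2, 1.82 ± 0.86 on the log2 scale for batch 2 minus batch 1 (edgeR BH adjusted p = 0.994).

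**Figure D2:**
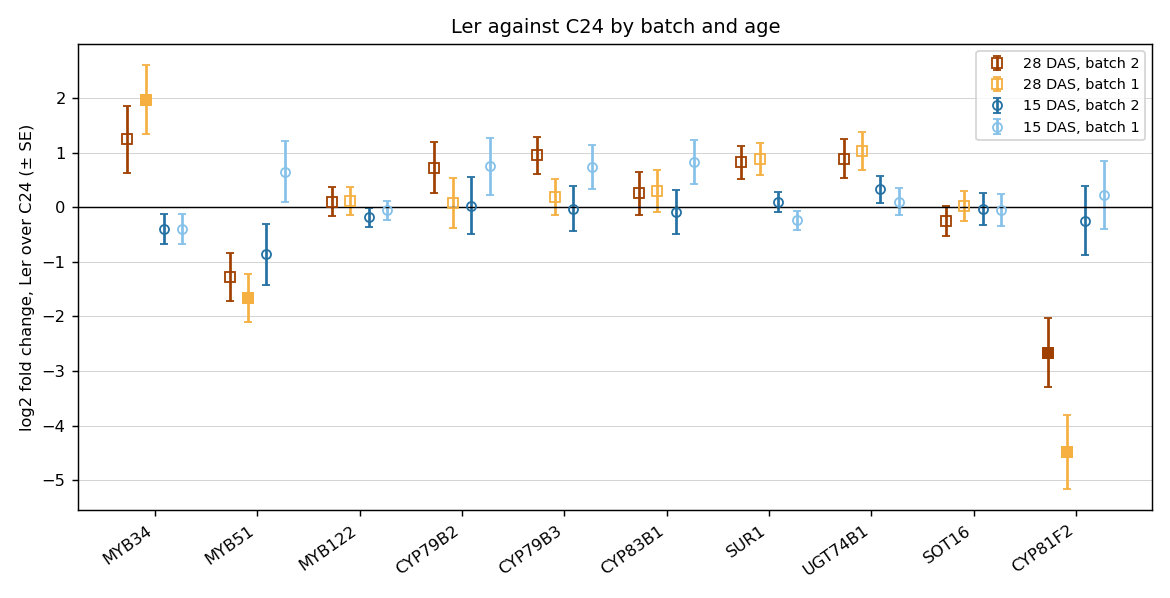
Log2 difference of Ler over C24 (with the standard error as bars) for the 10 members, by age and batch; filled symbols were called by edgeR at a BH adjusted p below 0.05. CYP81F2 at 28 DAS stands apart at -2.67 in batch 2 and -4.49 in batch 1, while all 15 DAS symbols are open.

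Touch and wound response genes are given beside these differences because MYB51 and CYP81F2 varied with some of them across groups. Of 6 such genes edgeR called none between the parents at 28 DAS over both batches (1 at an unadjusted p below 0.05), and their summed level was 2766 to 3218 CPM in Ler and 2389 to 2539 CPM in C24 of batch 2. In batch 1 the sum was 5294 to 5419 CPM in Ler and 4261 to 6069 CPM in C24. LOX2, which responds to jasmonate, made up most of these sums, with 3146 and 2722 CPM in Ler and 2459 and 2243 CPM in C24 of batch 2. WRKY40, another of the 6, had 10.1 and 8.40 CPM in Ler and 9.19 and 14.4 CPM in C24 of batch 2. In batch 1 WRKY40 had 17.4 and 12.9 CPM in Ler and 87.0 and 37.0 CPM in C24. TCH4, a touch-induced cell wall enzyme, had 25.1 and 19.5 CPM in Ler and 48.5 and 90.1 CPM in C24 of batch 2, and 12.2 and 12.6 CPM in Ler and 208 and 74.4 CPM in C24 of batch 1. Their part in the parental differences was not tested.

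Among 35 further genes of tryptophan supply, regulation, indole modification, transport and breakdown, the parents differed at 28 DAS in 17 over both batches, 11 higher and 6 lower in Ler (of all genes, 11.9 and 12.2%). IGMT1, a methyltransferase that acts after CYP81F2, averaged 1.34 ± 0.38 CPM in Ler and 8.18 CPM in C24 (SD, n = 4), a log2 difference of -2.58 ± 0.32 (edgeR BH adjusted p = 8.25e-06). IGMT1 is 92.5% identical in coding sequence to IGMT2, so the split of reads between the 2 genes is uncertain. Relatives of CYP81F2 went the other way: CYP81F3 averaged 25.9 CPM in Ler and 7.24 CPM in C24, and CYP81F4 2.12 CPM in Ler and 0.187 CPM in C24. CYP81F3 and CYP81F4 share 81.6% of their coding bases. ASB1, a subunit of anthranilate synthase in tryptophan supply, averaged 30.3 ± 3.80 CPM in Ler and 17.0 CPM in C24.

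In seedlings at 15 DAS no member was called between the parents by edgeR in batch 2 (18.8% of all genes), in batch 1 (6.58%) or over both (21.6%). None of the 10 reached an unadjusted p below 0.05 in either batch or over both, and DESeq2 called none. MYB51 had 11.96 and 6.80 CPM in Ler of batch 2, against 22.1 and 12.5 CPM in C24, and 13.7 and 8.84 CPM in Ler of batch 1, against 7.57 and 6.73 CPM in C24. The parents stood in opposite orders in the batches, and the difference between the batches was called for no member (1.12% of all genes; none at an unadjusted p below 0.05 in edgeR, none with DESeq2). MYB34 had 5.01 and 6.35 CPM in Ler of batch 2, against 6.25 and 8.76 CPM in C24, and 7.67 and 8.68 CPM in Ler of batch 1, against 10.5 and 11.2 CPM in C24. Of the 35 other pathway genes 8 were called at 15 DAS over both batches, 6 higher in Ler and 2 lower, a share near the 21.6% of all genes. They included ASB1 with 22.5 ± 5.03 CPM in Ler and 6.41 CPM in C24, and the glucosinolate transporter GTR2 with 98.9 ± 22.3 CPM in Ler and 48.1 CPM in C24 (edgeR BH adjusted p = 7.9e-05 and 8.97e-05).

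Age was the contrast with the most calls. Between leaves at 28 DAS and seedlings at 15 DAS, 6 members were higher and 2 lower in the L lines, 7 higher and 1 lower in the F1 hybrids, 6 higher and 1 lower in Ler, and 7 higher and 1 lower in C24. Tissue, medium and age changed together here, and most genes moved: 83.6% of all genes were called in the L lines (38.3% higher, 45.3% lower), 67.1% in the F1 hybrids (31.0 and 36.1%), 68.4% in Ler (31.4 and 37.0%) and 68.7% in C24 (31.8 and 36.9%). The members' median log2 change was 0.60 in the L lines, 1.15 in the F1 hybrids, 1.06 in Ler and 0.95 in C24, beside -0.08, -0.07, -0.07 and -0.07 over all genes. Root markers fell with age (6 of 6 in the L lines, 4 of 6 in the F1 hybrids and in Ler, 6 of 6 in C24), and green leaf markers rose (4 of 4 in the L lines and F1 hybrids, 3 of 4 in each parent). Touch and wound response genes rose too (5 of 6 in the L lines, 2 in the F1 hybrids, 2 in Ler and 5 in C24). Their part in these changes was not tested.

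The core enzymes CYP83B1, SUR1, UGT74B1 and SOT16 rose in all 4 sets of genotypes. CYP83B1 had 210.1 to 424 CPM at 28 DAS and 80.8 to 115 CPM at 15 DAS in the 4 Ler pools of each age, and 234.1 to 373 CPM at 28 DAS and 40.5 to 120.0 CPM at 15 DAS in C24. Its ranges did not overlap between the ages in any of the 4 sets. The log2 change was 1.60 ± 0.15 in the L lines, 1.97 ± 0.30 in the F1 hybrids, 1.90 ± 0.30 in Ler and 2.00 ± 0.30 in C24 (edgeR BH adjusted p = 2.48e-12, 5.46e-07, 9.01e-07 and 3.95e-07). SUR1, which acts after CYP83B1, rose by 1.41 ± 0.09 in the L lines, 1.73 ± 0.18 in the F1 hybrids, 1.90 ± 0.18 in Ler and 0.98 ± 0.17 in C24. UGT74B1 rose by 1.12 ± 0.11 in the L lines, 1.61 ± 0.22 in the F1 hybrids, 1.63 ± 0.22 in Ler and 0.89 ± 0.22 in C24. SOT16 rose by between 0.71 (L lines) and 1.05 (F1 hybrids). In C24, Ler and the F1 hybrids these calls held in every alternative run.

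Of the entry enzymes, CYP79B3 rose in all 4 sets, by 0.82 ± 0.14 in the L lines, 1.09 ± 0.28 in the F1 hybrids, 1.33 ± 0.28 in Ler and 1.12 ± 0.28 in C24. CYP79B2 had log2 changes of 0.72 in both Ler and C24 that missed the threshold (edgeR BH adjusted p = 0.0769 and 0.0796). It rose in the F1 hybrids (1.22 ± 0.37) and in the L lines (0.49 ± 0.18), and the F1 call was lost without LerxC24 pool A of 28 DAS (0.73, edgeR BH adjusted p = 0.0946). MYB122 fell slightly in C24 (-0.42 ± 0.15) and in the L lines (-0.25 ± 0.08), and the C24 call was lost without the 15 DAS pool B of batch 1 (-0.25, edgeR BH adjusted p = 0.176).

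**Figure D3:**
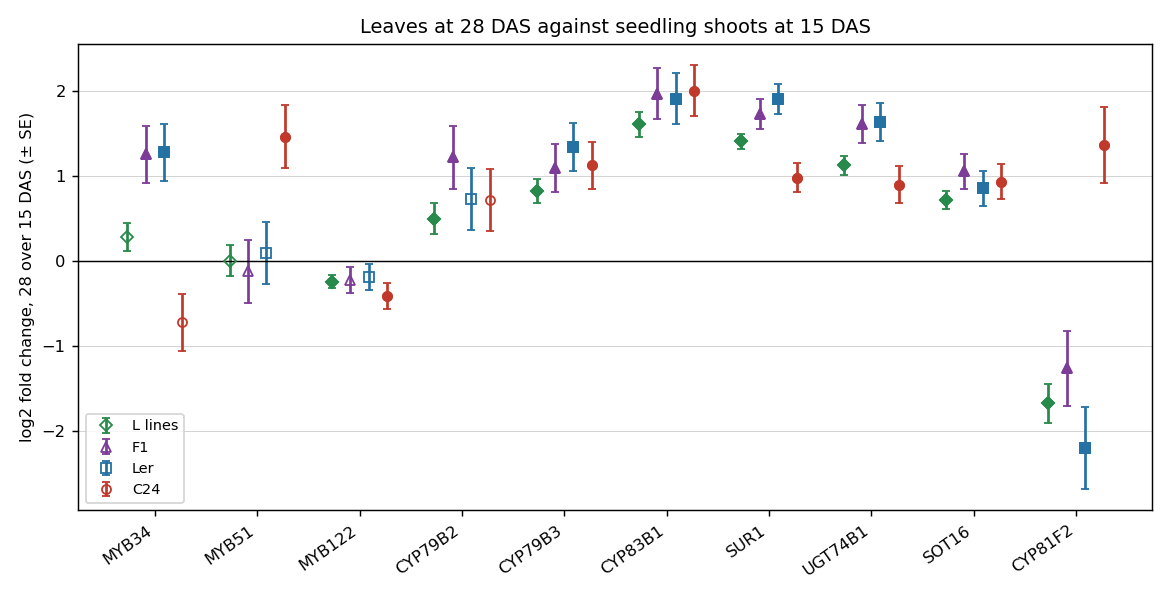
Log2 change of the 10 members at 28 DAS over 15 DAS (with the standard error as bars) in L lines, F1 hybrids, Ler and C24; filled symbols were called by edgeR at a BH adjusted p below 0.05. CYP83B1 lies between 1.60 and 2.00 in all 4 sets, while CYP81F2 stands at 1.36 in C24 and at -2.21 in Ler.

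MYB34 and CYP81F2 did not change alike in the 2 parents. MYB34 had 12.2 to 23.2 CPM at 28 DAS and 5.01 to 8.68 CPM at 15 DAS in Ler, without overlap. In C24 it had 3.04 to 10.1 CPM at 28 DAS and 6.25 to 11.2 CPM at 15 DAS, with overlap. It rose by 1.28 ± 0.34 in Ler (edgeR BH adjusted p = 0.00108), and its change of -0.73 ± 0.34 in C24 missed the threshold (edgeR BH adjusted p = 0.0535; 0.0199 with the replicate block). The change in Ler minus that in C24, a test added after the data were seen, was 2.00 ± 0.47 (edgeR BH adjusted p = 0.00377).

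CYP81F2 had 0.859 to 1.71 CPM at 28 DAS and 3.44 to 7.31 CPM at 15 DAS in Ler, and 8.48 to 24.1 CPM at 28 DAS and 3.78 to 9.94 CPM at 15 DAS in C24. The ages did not overlap in Ler and overlapped in C24. It fell by 2.21 ± 0.48 on the log2 scale in Ler (edgeR BH adjusted p = 1.32e-04), whereas in C24 it rose by 1.36 ± 0.45 (edgeR BH adjusted p = 0.00727). Without the 15 DAS C24 pool D the C24 call was lost (1.12, edgeR BH adjusted p = 0.0511). The difference between the parents was -3.57 ± 0.66 (edgeR BH adjusted p = 2.24e-04).

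SUR1 rose in both parents and more so in Ler, by a difference of 0.92 ± 0.24 (edgeR BH adjusted p = 0.00956). These 3 members, 2 higher and 1 lower, were the ones called for that difference, where 11.7% of all genes were (5.50% higher and 6.17% lower), and all 3 calls held in the 22 alternatives run. MYB51 had 7.89 to 15.5 CPM at 28 DAS and 6.80 to 13.7 CPM at 15 DAS in Ler. In C24 it had 17.6 to 44.5 CPM at 28 DAS and 6.73 to 22.1 CPM at 15 DAS. It gave 0.09 ± 0.37 in Ler and rose in C24 (1.46 ± 0.37, edgeR BH adjusted p = 8.38e-04), but the difference of -1.37 ± 0.52 missed the threshold (edgeR BH adjusted p = 0.0848; 0.0352 with the replicate block).

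In the hybrids and lines these 3 genes changed with age as follows. MYB34 rose in the F1 hybrids (1.25 ± 0.34) and gave 0.28 ± 0.17 in the L lines (edgeR BH adjusted p = 0.116). CYP81F2 fell in the L lines, by 1.68 ± 0.23, and in the F1 hybrids, by 1.27 ± 0.45. The F1 call was lost without C24xLer pool A of 28 DAS or LerxC24 pool A of 15 DAS (-0.94 and -0.51, edgeR BH adjusted p = 0.0877 and 0.341). MYB51 showed no call in either (-0.13 ± 0.37 and 0.00 ± 0.19).

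Of the 35 other pathway genes 22 rose and 4 fell with age in the L lines, 21 and 3 in the F1 hybrids, 21 and 5 in Ler and 23 and 3 in C24, where 83.6, 67.1, 68.4 and 68.7% of all genes were called in the same order of sets. APK1 and APK2, which supply the sulfate donor that SOT16 uses, were among those that rose most clearly: in Ler APK1 averaged 357 CPM at 28 DAS and 65.6 CPM at 15 DAS, and APK2 398 CPM at 28 DAS and 60.9 CPM at 15 DAS. TRP1, of tryptophan synthesis, averaged 136 CPM at 28 DAS and 42.2 CPM at 15 DAS in C24. CYP81F4, which also modifies the indole ring, fell in C24 to 0.187 CPM at 28 DAS, against 8.88 CPM at 15 DAS. The change with age differed between Ler and C24 for 11 of the 35 (6 positive, 5 negative; 11.7% of all genes), among them PAD3 and CYP71A12 of camalexin synthesis (-3.86 ± 1.00 and -2.18 ± 0.52 on the log2 scale).

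The F1 comparison asks whether hybrids depart from the average of their parents. For these 10 genes no departure was called at either age in either cross: LerxC24 and C24xLer were set against mid-parent libraries, made by averaging the Ler and C24 libraries of the same batch. Of all genes, 0.0166% were called for LerxC24 and 0.209% for C24xLer at 15 DAS, and 0.0289% and 0.0144% at 28 DAS. At an unadjusted p below 0.05 in edgeR there were 2 members for LerxC24 at 15 DAS, 1 for LerxC24 at 28 DAS and none for C24xLer, and DESeq2 called none. The share of all genes at that unadjusted threshold is not given here. With the shares of all genes so low, the absence of calls is no particular feature of these members.

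The nearest to a departure was SUR1 in LerxC24 seedlings, with 81.7 and 85.3 CPM against 130.9 and 138.6 CPM in the mid-parent libraries. The groups did not overlap, which 2 libraries a side can do without a real difference. The log2 difference was -0.67 ± 0.18 (unadjusted p = 0.00111, edgeR BH adjusted p = 0.397). UGT74B1 had 47.6 and 45.5 CPM in LerxC24 seedlings, against 67.9 and 74.3 CPM in the mid-parent libraries (-0.59 ± 0.24, edgeR BH adjusted p = 0.993). At 28 DAS CYP81F2 had 1.63 and 2.13 CPM in LerxC24, against 5.09 and 5.58 CPM in the mid-parent libraries (-1.48 ± 0.63, edgeR BH adjusted p = 1.0). MYB34 in the same leaves had 23.9 and 25.7 CPM, against 14.7 and 16.6 CPM in the mid-parent libraries (0.68 ± 0.64).

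No member lay outside both parents in an F1 hybrid (0.0795% of all genes for LerxC24 and 0.0265% for C24xLer at 15 DAS, 0.0144% and 0.0251% at 28 DAS), where DESeq2 called 1 member for LerxC24 at 15 DAS. Against single parents 3 calls were made in the main edgeR fit. SUR1 in LerxC24 seedlings was below Ler, with 137.4 and 140.1 CPM in Ler (-0.73 ± 0.18, edgeR BH adjusted p = 0.0212; 4.25% of all genes were called, 1.79% lower), and against C24, with 124 and 137.1 CPM, it missed the threshold (edgeR BH adjusted p = 0.0561; 2.97% of all genes). CYP81F2 in leaves was lower in LerxC24 than in C24 (-2.29 ± 0.61, edgeR BH adjusted p = 0.04; 3.92% of all genes, 2.08% lower), and higher in C24xLer, with 2.72 and 10.8 CPM, than in Ler (2.84 ± 0.64, edgeR BH adjusted p = 0.0202; 2.35% of all genes, 1.62% higher). The SUR1 call and the LerxC24 call were lost with any of their 4 libraries left out, and the C24xLer call without Ler pool A, Ler pool B or C24xLer pool B, and with libraries of the batch only (2.84, edgeR BH adjusted p = 0.114). Without C24xLer pool B that difference was 1.53 on the log2 scale. Some alternatives added calls. SUR1 in LerxC24 seedlings passed against C24 with DESeq2 (DESeq2 adjusted p = 0.0185) and with the batch only (edgeR BH adjusted p = 0.00447). UGT74B1 in them passed against Ler with the batch only (edgeR BH adjusted p = 0.00765). In LerxC24 leaves MYB51 passed against C24 with DESeq2 (DESeq2 adjusted p = 0.0448) and the replicate block (edgeR BH adjusted p = 0.0447). MYB34 passed there with the batch only (edgeR BH adjusted p = 0.029). The other comparisons with single parents called no member by edgeR: C24xLer against C24 at 15 DAS (1.88% of all genes; no member at an unadjusted p below 0.05) and at 28 DAS (1.76%; 2 members), C24xLer against Ler at 15 DAS (1.0%; none), and LerxC24 against Ler at 28 DAS (1.8%; none). The difference of the F1 departure between the crosses was called for none of the 10 at either age (0.0498% of all genes at 15 DAS and 0.0% at 28 DAS; unadjusted p below 0.05 for 1 and 0 members; DESeq2 called none).

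**Figure D4:**
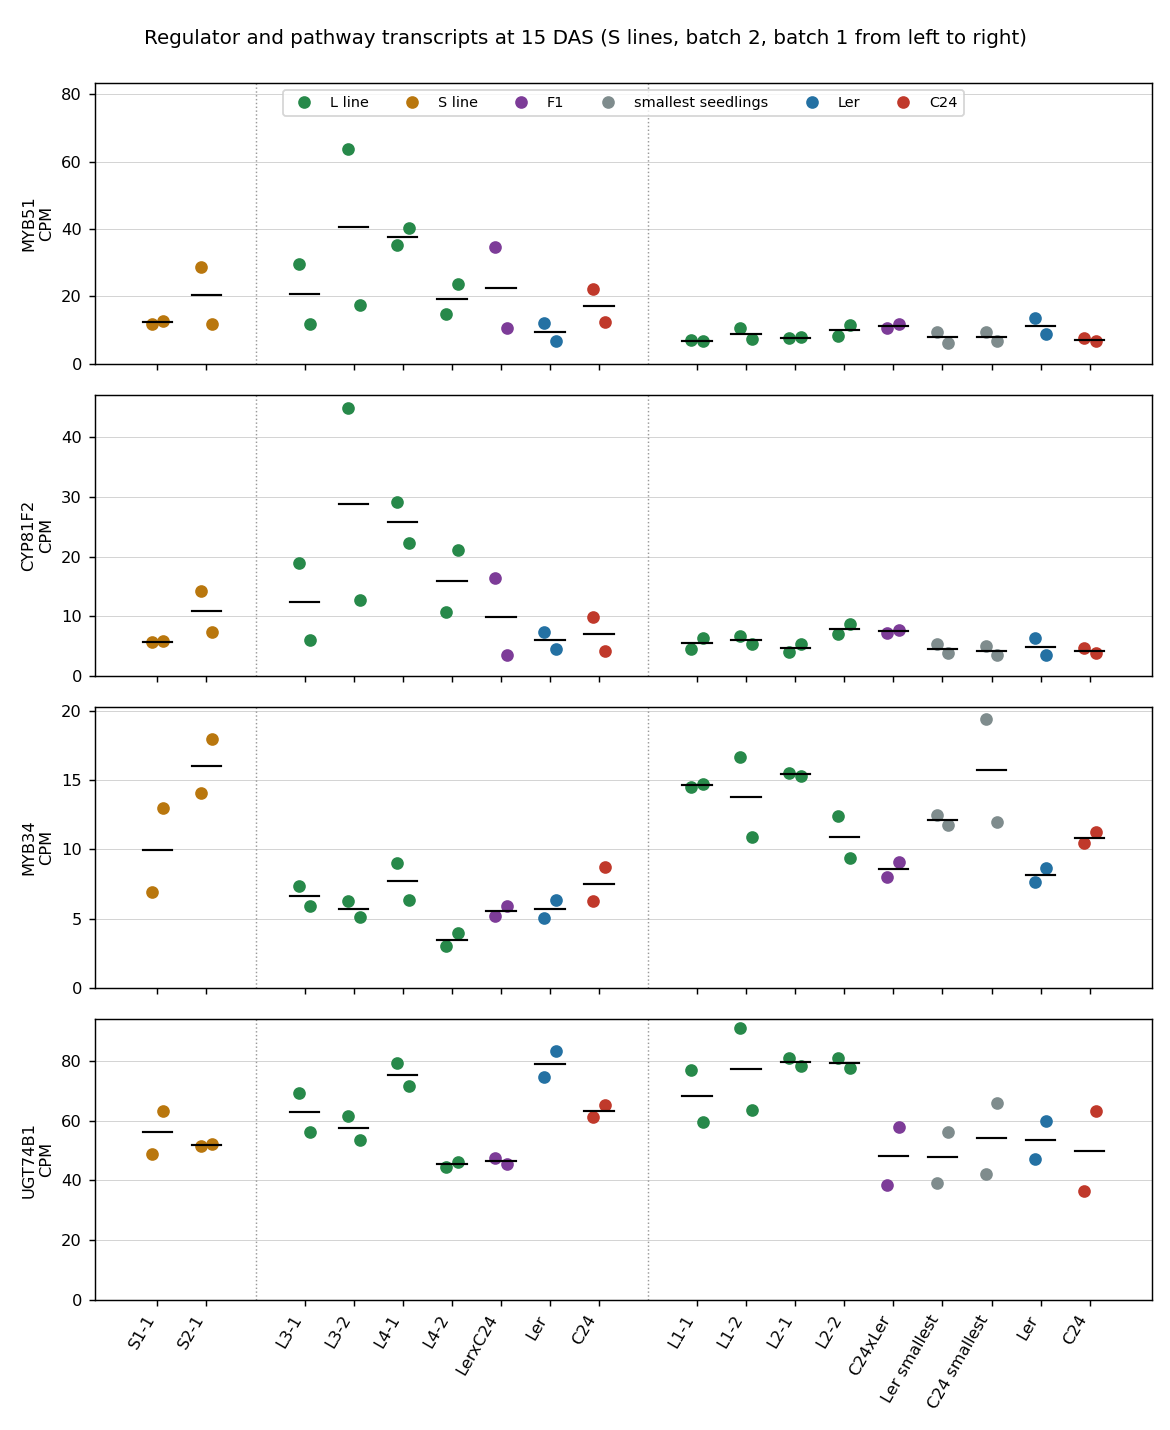
Levels in CPM (vertical axes, linear) of MYB51, CYP81F2, MYB34 and UGT74B1 in the 18 groups at 15 DAS, with S lines, batch 2 and batch 1 from left to right. Dots are the 2 pools of a group and black lines their mean; pools of L3-2 lie far apart for MYB51 (63.8 and 17.4 CPM) and CYP81F2 (45.0 and 12.8 CPM).

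The hybrid mimic lines were compared with the same mid-parent libraries, 4 lines of a batch at equal weight. No member was called in batch 2 or batch 1 at either age (at 15 DAS 1.96 and 1.34% of all genes, at 28 DAS 1.35 and 0.779%). At an unadjusted p below 0.05 in edgeR there were 3 members in each batch at 15 DAS, and 2 in batch 2 and 1 in batch 1 at 28 DAS, and DESeq2 called none. The shares of all genes just given are at the adjusted threshold, so these unadjusted counts cannot be read against them. The members' median log2 difference was -0.10 in batch 2 and 0.21 in batch 1 at 15 DAS, and -0.20 and -0.14 at 28 DAS, beside medians over all genes that were 0.00438 or closer to 0.

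In batch 2 seedlings MYB51 and CYP81F2 averaged more in the L lines than in the mid-parent libraries, with no call, and differed between pools of a line. CYP81F2 had 18.9 and 5.95 CPM in L3-1, 45.0 and 12.8 CPM in L3-2, 29.2 and 22.4 CPM in L4-1, and 10.7 and 21.1 CPM in L4-2, against 8.63 and 4.39 CPM in the mid-parent libraries. Of these 8 pools, 7 lay above both mid-parent libraries and 1 between them. The log2 difference was 1.61 ± 0.55 (edgeR BH adjusted p = 0.171). MYB51 had 29.6 and 11.8 CPM in L3-1, 63.8 and 17.4 CPM in L3-2, 35.2 and 40.4 CPM in L4-1, and 14.9 and 23.7 CPM in L4-2, against 17.0 and 9.63 CPM in the mid-parent libraries. Its difference was 1.09 ± 0.48 (edgeR BH adjusted p = 0.305). WRKY40, a transcription factor gene induced by touch and wounding, also differed between pools A and B, with 74.9 and 27.9 CPM in L3-2 and 55.0 and 9.36 CPM in LerxC24, where MYB51 had 34.6 and 10.6 CPM. Other touch and wound response genes were mixed. ERF5 had 34.2 and 14.3 CPM in L3-2, 7.95 and 11.2 CPM in L3-1 and 11.1 and 9.74 CPM in LerxC24. TCH4 had 282 and 68.3 CPM in L4-2, where MYB51 was higher in pool B. The part of these genes in the MYB51 and CYP81F2 values was not tested.

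SUR1 ran the other way in these seedlings. It had 98.6 and 110.0 CPM in L3-1, 105 and 96.0 CPM in L3-2, 126.5 and 124 CPM in L4-1, and 75.0 and 77.5 CPM in L4-2, against 130.9 and 138.6 CPM in the mid-parent libraries. All 8 pools lay below both mid-parent libraries, with a log2 difference of -0.41 ± 0.14 (edgeR BH adjusted p = 0.155). In batch 1 seedlings SUR1 had 116.8 to 176.7 CPM in the 8 pools of the L lines and 98.9 to 130.7 CPM in the mid-parent libraries (0.33 ± 0.14, edgeR BH adjusted p = 0.548). UGT74B1 had 59.7 to 91.2 CPM in the L lines and 41.7 to 61.7 CPM in the mid-parent libraries there (0.56 ± 0.20, edgeR BH adjusted p = 0.331), and MYB34 9.37 to 16.7 CPM in the L lines and 9.06 to 9.95 CPM in the mid-parent libraries (0.51 ± 0.23, edgeR BH adjusted p = 0.594).

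Line by line, 1 member was called in 1 line. SUR1 in L4-2 seedlings, with 75.0 and 77.5 CPM against 134.8 ± 5.45 CPM in the mid-parent libraries (SD, n = 2 averaged libraries, not single pools), differed by -0.78 ± 0.18 (edgeR BH adjusted p = 0.0138; 5.06% of all genes were called in that line, 2.36% lower). The call was lost with each of its 4 libraries left out (-0.83 to -0.74, edgeR BH adjusted p = 0.0573 to 0.129). MYB34 in the same pools had 3.01 and 3.92 CPM, against 5.63 and 7.55 CPM in the mid-parent libraries (-0.88 ± 0.29, edgeR BH adjusted p = 0.0846). No member was called at 15 DAS in L3-1 (2.02% of all genes), L3-2 (1.53%), L4-1 (1.85%), L1-1 (1.65%), L1-2 (1.61%), L2-1 (1.13%) or L2-2 (1.14%), where edgeR gave between 0 and 3 members per line at an unadjusted p below 0.05 and DESeq2 called 3 pairs of member and line over all 8 lines. At 28 DAS no line had a member called (L3-1 1.47%, L3-2 0.884%, L4-1 0.566%, L4-2 1.05%, L1-1 1.02%, L1-2 0.887%, L2-1 0.119% and L2-2 0.581% of all genes), where DESeq2 called 1 member in 1 line and between 0 and 2 members per line had an unadjusted p below 0.05 in edgeR. Of the 35 other pathway genes, 1 was higher and 4 lower in L4-2 seedlings, among them SOT17 with 15.1 CPM on average, against 35.5 CPM in the mid-parent libraries.

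In leaves of the L lines CYP81F2 averaged less than in the mid-parent libraries in both batches, with no call. In batch 2 it had 1.24 to 3.83 CPM in the 8 pools of the L lines, against 5.09 and 5.58 CPM in the mid-parent libraries, without overlap. The Ler pools behind those averages had 1.15 and 1.71 CPM, so the L lines did overlap Ler. In batch 1 it had 1.58 to 11.7 CPM in the L lines, against 12.6 and 9.75 CPM in the mid-parent libraries, with overlap. The log2 differences were -1.14 ± 0.46 in batch 2 and -1.19 ± 0.45 in batch 1 (edgeR BH adjusted p = 0.467 and 0.561). MYB51 in batch 2 leaves had 6.14 to 21.8 CPM in the L lines, against 12.8 and 17.7 CPM in the mid-parent libraries (-0.77 ± 0.34, edgeR BH adjusted p = 0.557). The higher values were those of L4-1, with 11.2 and 21.8 CPM.

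Pools of 1 genotype differed in batch 1 leaves in a way that ran through several members. MYB51 had 32.7 CPM in pool B and 16.8 CPM in pool A of C24xLer, 37.9 and 14.1 CPM in those of L1-2, 39.9 and 19.9 CPM in those of L2-1, and 44.9 and 25.7 CPM in those of L2-2. MYB34 was lower in the same B pools, with 6.48 CPM in B and 15.3 CPM in A of C24xLer, 4.93 and 13.1 CPM in L1-2, 3.73 and 7.96 CPM in L2-1, and 1.65 and 11.3 CPM in L2-2. CYP81F2 was higher in B than in A by 3.95-fold in C24xLer, 3.16-fold in L1-2, 2.35-fold in L2-1 and 2.55-fold in L2-2. TCH4 had 317.5 CPM in B and 19.5 CPM in A of C24xLer, 485 and 14.8 CPM in L1-2, 714 and 134 CPM in L2-1, and 1501 and 130 CPM in L2-2. ERF5, another gene of that list, was mixed: it was lower in B, with 9.75 CPM against 17.7 CPM in A, in C24xLer and with 10.1 against 41.3 CPM in L2-2, and higher in B, with 18.5 against 8.01 CPM in L1-2 and with 18.8 against 11.8 CPM in L2-1. For MYB51 the pools of L1-1 (19.6 and 17.0 CPM), Ler and C24 in this batch lay closer together. The part of touch and wound responses in these values was not tested.

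The S lines, set against the batch 1 mid-parent libraries at 15 DAS, had no member called (3.17% of all genes in S1-1 and 2.63% in S2-1; at an unadjusted p below 0.05 in edgeR there were none in S1-1 and 2 in S2-1, and none were called with DESeq2). MYB34 had 14.04 and 18.0 CPM in S2-1 and 6.93 and 13.0 CPM in S1-1, against 9.06 and 9.95 CPM in the mid-parent libraries, a log2 difference of 0.76 ± 0.28 in S2-1 (edgeR BH adjusted p = 0.199). MYB51 had 28.9 and 11.7 CPM in S2-1, whose WRKY40 stood at 143.9 and 7.43 CPM, and 11.9 and 12.7 CPM in S1-1, whose WRKY40 stood at 7.86 and 18.0 CPM. SUR1 had 91.4 and 85.5 CPM in S2-1, against 98.9 and 130.7 CPM in the mid-parent libraries (-0.37 ± 0.18, edgeR BH adjusted p = 0.363). Of the 35 other pathway genes 1 was called in each S line: the transcription factor gene MYC3 in S1-1 (102.1 CPM on average, against 45.7 CPM in the mid-parent libraries) and IGMT1 in S2-1 (15.6 CPM against 4.22 CPM).

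Seedling size within a parent gave no call either. The smallest Ler seedlings against the other Ler pools of batch 1 (1.3% of all genes) and the smallest C24 seedlings against the other C24 pools (0.0%) had no member called by edgeR or DESeq2, and none with an unadjusted p below 0.05. The C24 result rests on pools of which the B pair differed by 2.46 and the A pair by 26.2 in chi-square per degree of freedom, so the pools may not be separate material. Without either B pool there was still no call. MYB34 had 12.5 and 11.7 CPM in the smallest Ler seedlings, against 7.67 and 8.68 CPM in Ler, and 19.4 and 11.97 CPM in the smallest C24 seedlings, against 10.5 and 11.2 CPM in C24. The groups did not overlap, which groups of 2 pools can do without a real difference. The log2 differences were 0.56 ± 0.28 and 0.54 ± 0.27 (edgeR BH adjusted p = 0.641 and 1.0).

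Between batches no member was called in either parent at either age, where 18.5% of all genes were called in Ler and 14.3% in C24 at 15 DAS and 9.15 and 8.39% at 28 DAS. At an unadjusted p below 0.05 in edgeR there were 2 members in Ler and 4 in C24 at 15 DAS, and 0 and 3 at 28 DAS, and DESeq2 called 1 member in C24 at 15 DAS. These unadjusted counts cannot be read against the shares of all genes, which are at the adjusted threshold. Differences of 1 or more on the log2 scale were seen in 5 cases, all in C24. MYB51 differed by 1.28 ± 0.56 in seedlings and CYP81F2 by -1.21 ± 0.58 in leaves (edgeR BH adjusted p = 0.132 and 0.239). CYP79B3 in C24 seedlings had 49.6 and 41.8 CPM in batch 2, against 11.9 and 28.1 CPM in batch 1 (1.21 ± 0.42, edgeR BH adjusted p = 0.0537). MYB34 in C24 leaves had 8.66 and 10.1 CPM in batch 2, against 3.28 and 3.04 CPM in batch 1 (1.56 ± 0.63, edgeR BH adjusted p = 0.149). MYB51 in the same leaves had 17.6 and 25.7 CPM in batch 2, against 44.5 and 41.8 CPM in batch 1 (-1.0 ± 0.43, edgeR BH adjusted p = 0.182). With the replicate block CYP79B3 and MYB122 were called in C24 seedlings and MYB34 in C24 leaves (edgeR BH adjusted p = 0.00271, 0.0439 and 0.0407).

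Among the members 2 sets ran against each other at 28 DAS: MYB51 with CYP81F2, and MYB34 with SUR1 and UGT74B1. Correlations are given as a description over group means of log2 CPM (prior count 2), since the groups share batches, parents and depth. CYP81F2 followed MYB51, with a Pearson r of 0.812 (Spearman rho 0.811) over the 14 groups, and 0.906 within the 7 groups of batch 2 and 0.962 within the 7 of batch 1. UGT74B1 followed MYB34 (0.924, and 0.747 in batch 2 and 0.873 in batch 1) and SUR1 (0.986, and 0.965 and 0.978). MYB51 ran against UGT74B1 (-0.928, and -0.70 in batch 2 and -0.963 in batch 1) and against MYB34 (-0.891, and -0.554 and -0.945). CYP79B2, CYP79B3, CYP83B1, SOT16 and MYB122 gave weaker values over the 14 groups, with r between -0.453 and 0.552 against MYB51, -0.429 and 0.15 against CYP81F2, and -0.431 and 0.481 against MYB34. Within a batch some were stronger: SOT16 gave 0.965 with MYB51 and 0.826 with CYP81F2 in batch 2 (-0.207 and -0.262 in batch 1), MYB122 gave -0.051 with MYB51 in batch 2 and -0.708 in batch 1, and CYP79B3 gave 0.726 with MYB34 in batch 2 and 0.594 in batch 1.

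**Figure D5:**
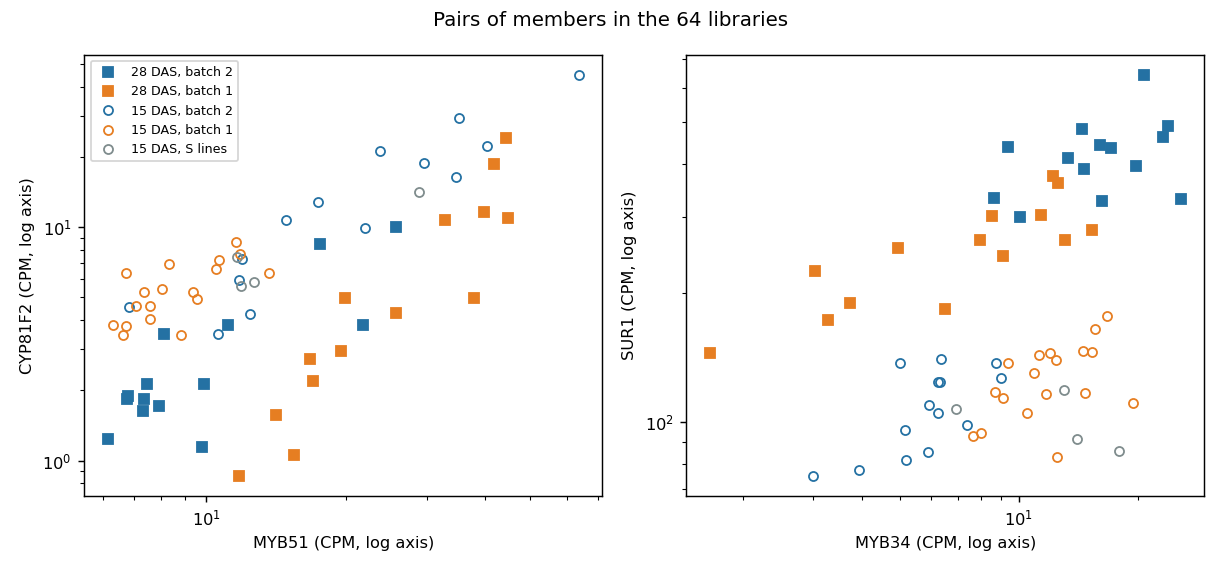
Levels in CPM on log axes of MYB51 against CYP81F2 and of MYB34 against SUR1, 1 point per library (64 in all); filled squares are 28 DAS, open circles 15 DAS, coloured by batch. MYB51 and CYP81F2 lie along a rising band at each age, in which the 28 DAS squares reach down to 0.859 CPM of CYP81F2 and the 15 DAS circles to 3.44 CPM.

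At 15 DAS CYP81F2 again followed MYB51 (r 0.914 and rho 0.853 over 18 groups; 0.81 without the 2 groups farthest from the median of MYB51; 0.891 in batch 2 and 0.594 in batch 1). SUR1 and UGT74B1 were related as well (0.81, and 0.944 in batch 2 and 0.874 in batch 1). MYB34 and MYB51 were less so than at 28 DAS, with -0.588 over all 18 groups, 0.211 in the 7 groups of batch 2 and -0.771 in the 9 of batch 1. MYB34 and UGT74B1 gave 0.221 over the 18 groups, 0.674 in batch 2 and 0.479 in batch 1. These differences between the ages were not tested.

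Touch and wound response genes ran with the same 2 sets in part. Over the 14 groups at 28 DAS MYB51 had an r of 0.889 with WRKY40, 0.839 with ERF5 and 0.715 with TCH4, and of 0.302 with JAZ10 and 0.527 with LOX2, which respond to jasmonate. MYB34 had -0.867 with WRKY40 and -0.813 with TCH4, and SUR1 -0.91 with ERF5. Over the 18 groups at 15 DAS MYB51 had 0.88 with WRKY40 and 0.824 with ERF5, but -0.487 with JAZ10 and -0.611 with LOX2. The 6 genes together summed to 2389 to 8773 CPM at 28 DAS and to 196.3 to 1100 CPM at 15 DAS, and LOX2 made up most of the 28 DAS sums.

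Over the 18 groups at 15 DAS the genes most like each member were found among the 23190 tested genes whose mean reached 1 CPM. For UGT74B1 they were SOT18 (r 0.956), CYP83A1 (0.871) and CYP79F2 (0.868), all enzymes of aliphatic glucosinolate synthesis, and for SUR1 they were the glutathione transferase gene GSTF9 (0.911), FMO GS-OX1 (0.905) and SOT18 (0.899). For CYP81F2 they were AT1G05675 (0.956), PUP7 (0.932) and MYB51 (0.914). MYB51 was most like the receptor-like kinase gene LYK4 (0.923), AT3G53810 (0.923) and NAC036 (0.922), and MYB34 like AT3G07170 (0.95), AT5G60390 (0.94) and NAC028 (0.937). MYB122 was most like AT3G52220 (0.907), CYP79B2 like SERAT2;2 (0.926), CYP79B3 like AT3G22430 (0.922), CYP83B1 like BLH1 (0.829) and SOT16 like AT4G39190 (0.865).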

How the data were processed

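RNA from pools of plants was sequenced by the submitters, who checked reads with FastQC and used TAIR10, per the submitters' processing notes. The aligner, counter and strand handling were not given in the sources used here. Raw counts per gene, made by the authors, were used as deposited; they sum to 36324848 to 256721442 per library. Normalised tables, in which the authors multiplied each library's counts by 1 factor and rounded them (a score here), were not used. A combined count table was not used either, since 22 of its 38 columns carry another name. Counts were tested with edgeR 4.0.16 and limma 3.58.1 in R 4.3.3: TMM scaling, the default filter on low counts by group, 1 quasi-likelihood model of group means per age, and 1 over both ages for the age comparisons. Mid-parent libraries were averages of a Ler and a C24 library of the same batch and letter. They entered the model as ordinary libraries, so their spread is that of averages and not that between single pools. A gene was called at a Benjamini-Hochberg adjusted p below 0.05 over all genes tested. All shares of all genes in the text are at that adjusted threshold. Counts of members at an unadjusted p below 0.05 have no such share beside them, so whether they exceed that of all genes is not shown. CPM used TMM library sizes over all 64 libraries. Standard errors came from the log2 difference and its F value. The scripts were tested on simulated counts.

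The members and gene lists were chosen with earlier results of these data known. The text names all 10 members, up to 4 called genes of the other pathway list per comparison by smallest adjusted p, and the 3 genes most correlated with each member (fewer are printed for some). Genes and values outside that rule were chosen after their values were seen. Alternatives were DESeq2 1.42.0, its size factors, no filter, libraries of 1 batch only, a replicate block, log-scale parents, smallest Ler pools, the batch 2 mid-parent for S lines, and leaving out each library. The Ler and C24 comparison over both batches and the difference of the age change between them were added after seeing the data. Letters A and B were checked for pairing by the correlation of deviations from group means: its lowest value was 0.0369 at 15 DAS and -0.128 at 28 DAS in batch 1, and -0.13 at 15 DAS and 0.485 at 28 DAS in the F1 and L lines of batch 2. Letters C and D of the batch 2 parents gave 0.157 at 15 DAS and 0.597 at 28 DAS, from 1 pair of groups each. The correlation was thus positive in every pair of groups in the batch 2 sets of 28 DAS. It was positive in every pair in batch 1 at 15 DAS too, with a median of 0.337 and a highest value of 0.744. In batch 1 at 28 DAS the median was 0.265 and the highest value 0.571. In the F1 and L lines of batch 2 at 15 DAS they were 0.17 and 0.668. Letters thus deviated together in part in these sets as well, and the main model left the letter out. The blocked value is given where it changes a call between the parents.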

Additional observations from a re-analysis of the deposited data

Results flagged for a closer look

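For 3 members the change between 28 and 15 DAS differed between Ler and C24 by a test of the difference itself, which is what singled them out. The change in Ler minus that in C24 was 2.00 for MYB34 (2.003 ± 0.474, edgeR BH adjusted p = 0.00377), 0.923 ± 0.244 for SUR1 (edgeR BH adjusted p = 0.00956) and -3.569 ± 0.657 for CYP81F2 (edgeR BH adjusted p = 2.24e-04), all on the log2 scale. MYB34 was higher at 28 DAS in all 4 Ler pools than in any 15 DAS Ler pool, and CYP81F2 was lower in all 4. Across the 22 alternatives the values ran from 1.72 to 2.116, from 0.792 to 1.034 and from -3.942 to -3.314 in the same order of genes. The share of all genes called for this difference was 11.7%. The root markers and tissue that also differ between the ages were not tested as a part of it.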

How the results depend on the processing

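No called difference of a member changed direction in any alternative, and dropping the low-count filter moved no count of called members. Differences that were not called were not checked for a change of direction. With DESeq2 size factors 1 call was added, that of MYB34 between the ages in C24 (log2 change -0.748, edgeR BH adjusted p = 0.0468). For Ler against C24 at 28 DAS, the count of called members in batch 2 (1) became 4 with DESeq2, 5 with the replicate block and 5 with libraries of the batch only, and in batch 1 (3) it became 5 with DESeq2, 5 with the replicate block and 1 with libraries of the batch only, with 1 to 3 when single libraries were left out. Where no member was called, 1 or more were in these cases: the L lines of batch 2 at 15 DAS (1 with the batch only, 2 with parents averaged on the log scale), batch 2 against batch 1 in C24 at 15 DAS (1 with DESeq2, 2 with the replicate block, 0 to 2 with single libraries left out), in Ler at 15 DAS (3 with the smallest Ler pools) and in C24 at 28 DAS (1 with the replicate block), S2-1 (2 with the batch 2 mid-parent), and LerxC24 outside both parents at 15 DAS (1 with DESeq2, 1 with the batch only). The pairs of member and single L line called at 15 DAS (1) became 3 with DESeq2, 2 with the replicate block, 2 with the batch only and 5 with log-scale parents, and ran from 0 to 2 with single libraries left out. At 28 DAS (0) they became 1 with DESeq2. The cause was not tested. The F1 comparisons with single parents are not among these counts, and their added calls are given with them above. Outside them the replicate block moved no other count by over 1.5 times. Leaving out single libraries was not run for the L lines between the ages. With 2 pools a group, the spread between pools limits what each comparison can detect.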
